A study of Mus musculus with 2 samples.

Results

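Genes for taking up, burning and storing fatty acids, and for burning ketone bodies, were followed in embryonic mouse heart. The set was a list of 40 genes, found in the gene tables by Ensembl identifier without its version and the matching GENCODE M21 name. All 40 were found among 42462 annotated genes. RNA had been sequenced from whole hearts of B6NCrl embryos, pooled over male and female embryos at embryonic day 16.5, as biological replicates 1 and 2 of a single group. The pool of replicate 2 came from 41 embryos, and the size of the other pool is not stated in the labels. Both libraries started from 10 ng of total RNA above 200 nt with ERCC spike-ins, and both carry the same donor identifier. Nothing in the labels says that the pools came from separate litters, so the spread between them may be partly technical. There was no second condition, so levels are described, and differences are between these libraries only.

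Fatty acids enter the heart muscle cell after lipoprotein lipase has freed them from circulating fat, and are bound by carrier proteins and joined to coenzyme A. The carnitine shuttle then moves them into mitochondria, where beta-oxidation shortens them in repeated rounds of dehydrogenation, hydration, a further oxidation and thiolysis, and the electrons pass to the respiratory chain through the electron transfer flavoprotein. Ketone bodies reach the same end product, acetyl-CoA, by a shorter route. The fetal heart draws much of its energy from glucose and lactate, and the adult heart from fatty acids.

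The promoters of 4 members are shown for reasons given with each. Each is the 300 bases from 250 before to 50 after the RefSeq transcription start on GRCm38.p6, written along the gene's own strand. Capitals mark, on either strand, the TATA box TATAAA, the CCAAT box, the GC box GGGCGG, the E-box CACGTG and AGGTCA, the core that nuclear receptors of fatty acid metabolism bind. Fabp3 was the highest member, and its window at chr4:130308488-130308787 (plus strand) held none of these letters. Plin5 was the lowest, and the first listed of its windows, at chr17:56117499-56117798 (minus strand), held 2 CCAAT boxes, 2 GC boxes and 1 AGGTCA. Acadm encodes the medium-chain dehydrogenase, and its window at chr3:153944594-153944893 (minus strand) held the core as TGACCT on the other strand. Hadhb is shown because it lies head to head with Hadha, whose protein it partners, and its window at chr5:30155003-30155302 (plus strand) held 4 GC boxes.
Fabp3: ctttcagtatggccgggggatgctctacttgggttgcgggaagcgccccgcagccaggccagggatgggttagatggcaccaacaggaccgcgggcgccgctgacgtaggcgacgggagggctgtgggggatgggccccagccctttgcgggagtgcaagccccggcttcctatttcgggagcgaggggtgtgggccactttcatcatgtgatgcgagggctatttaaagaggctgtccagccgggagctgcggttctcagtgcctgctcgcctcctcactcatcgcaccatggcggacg
Plin5: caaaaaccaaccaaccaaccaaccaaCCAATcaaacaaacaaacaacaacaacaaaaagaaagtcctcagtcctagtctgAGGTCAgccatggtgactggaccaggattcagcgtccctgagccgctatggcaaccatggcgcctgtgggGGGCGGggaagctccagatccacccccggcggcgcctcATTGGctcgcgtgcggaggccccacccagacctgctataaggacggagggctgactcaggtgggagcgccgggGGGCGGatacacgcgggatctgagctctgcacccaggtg
Acadm: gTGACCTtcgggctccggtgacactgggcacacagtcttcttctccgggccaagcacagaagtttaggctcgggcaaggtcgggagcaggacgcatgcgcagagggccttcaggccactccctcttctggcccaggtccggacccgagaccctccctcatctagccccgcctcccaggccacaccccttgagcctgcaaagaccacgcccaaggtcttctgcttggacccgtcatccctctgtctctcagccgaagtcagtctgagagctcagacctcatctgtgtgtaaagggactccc
Hadhb: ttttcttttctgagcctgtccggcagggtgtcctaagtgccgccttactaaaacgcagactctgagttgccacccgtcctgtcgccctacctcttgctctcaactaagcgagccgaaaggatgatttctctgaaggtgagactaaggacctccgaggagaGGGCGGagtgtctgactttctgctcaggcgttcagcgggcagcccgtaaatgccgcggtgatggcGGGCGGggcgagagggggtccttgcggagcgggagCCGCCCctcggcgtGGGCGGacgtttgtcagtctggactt

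RefSeq windows were at hand for 30 members, 35 windows in all. No window was used for Dgat1, Acad9, Lpl, Dgat2, Decr1, Acaa2, Cpt1b, Acat1, Acot13 and Crat. The GC box stood in 23 of the 35 windows (65.7%), against 35.7% of all 32851 windows. The CCAAT box stood in 17 (48.6%, against 37.4% of all windows), and AGGTCA in 9 (25.7%, against 16.3%). The longer form AAGGTCA, which contains AGGTCA and was therefore counted under both, stood in 2 member windows, those of Acadm and Acacb (5.71%, against 4.72%). TATAAA stood in 1 window, that of Acacb (2.86%, against 13.6%), and CACGTG in 2 (5.71%, against 7.15%). AGGTCANAGGTCA, a direct repeat of the core with 1 base between, stood in no member window and in 0.0396% of all windows. A match says that the letters are there and not that a factor was bound. The windows of Hadha and Hadhb overlap by 228 bases, so they are not separate observations. The windows of Plin5 also overlap each other in part. Slc27a1, Acsl1 and Bdh1 have more than 1 window too, so these are counts of windows and not of genes.

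All 40 members reached at least 1 TPM in both libraries, where TPM is a length-corrected relative abundance of transcripts. The same held for 33.2% of annotated genes and for 59.1% of nuclear protein-coding genes. Member means ran from 1.77 TPM (Plin5) to 1598 TPM (Fabp3), with a median of 127.6 TPM, against 15.9 TPM over the 12676 expressed nuclear protein-coding genes. Of the members, 35 stood above that median and 22 in the top 10%. By level, 22 members were over 100 TPM, 17 between 10 and 100 TPM, and only Plin5 below. Together they held 0.845% of all TPM in replicate 1 and 0.808% in replicate 2, a mean of 0.826% ± 0.0263 (SD, n = 2). The 5 highest, Fabp3, Acadl, Etfb, Acaa2 and Hadhb, held 48.9% of the members' TPM in replicate 1 and 48.4% in replicate 2. In a whole-organ sample, fewer cells of a type and less RNA per cell cannot be told apart, and a level here is an average over all cells of the pool.

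**Figure D1:**
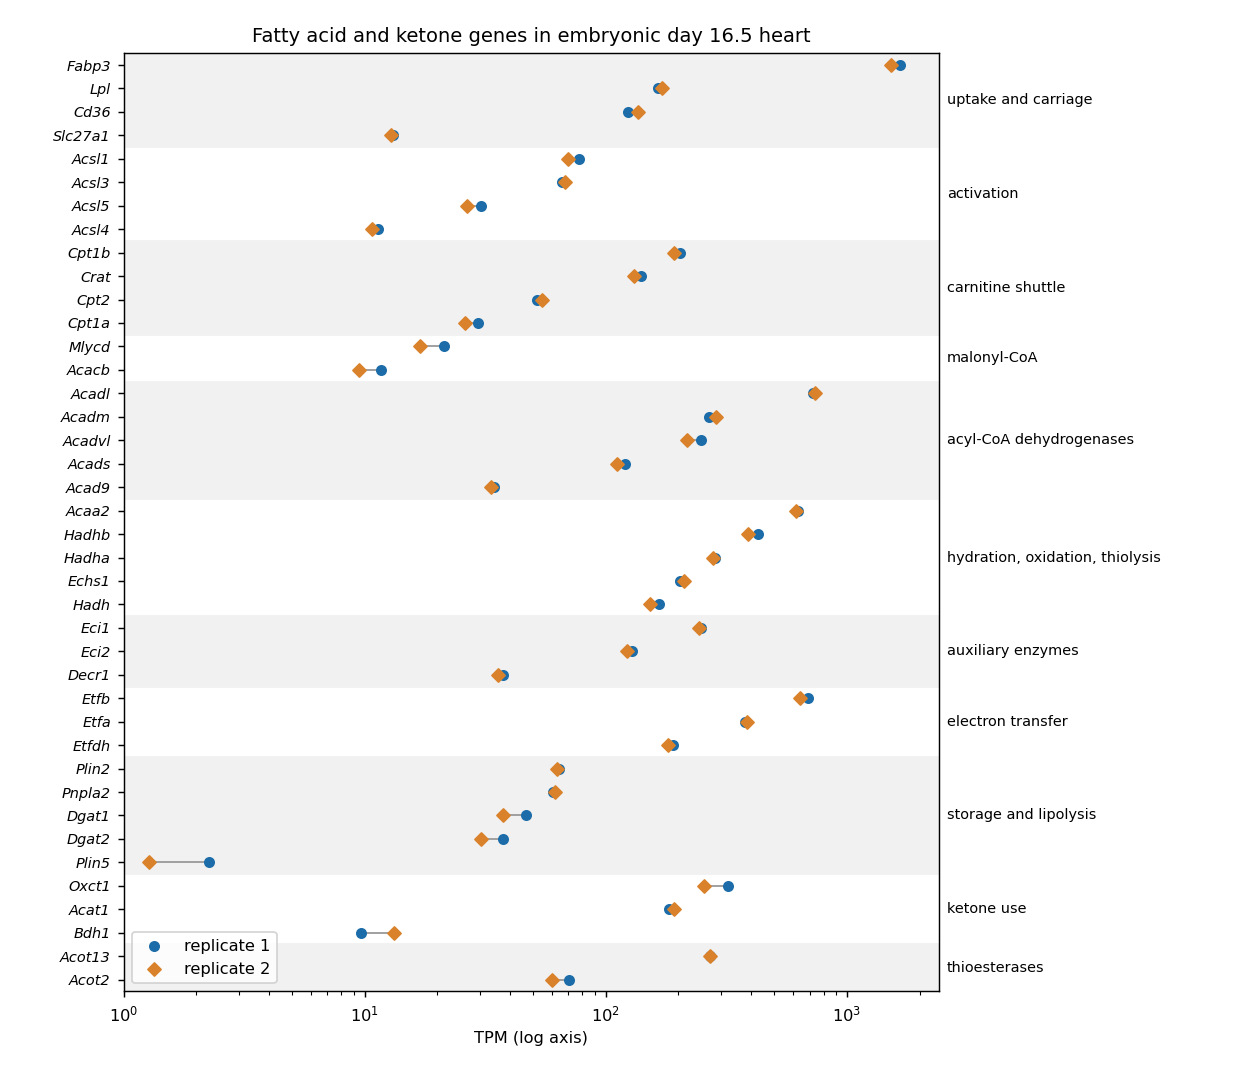
TPM (log axis) of each of the 40 genes in replicate 1 (circles) and replicate 2 (diamonds), grouped by role and ordered by level within a role. Most pairs of points nearly coincide, while Plin5 is the lowest in both libraries and Fabp3 the highest.

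The uptake and carriage genes summed to 1967 TPM in replicate 1 and 1850 TPM in replicate 2, most of it from Fabp3. Fabp3 (ENSMUSG00000028773.8; mm10 chromosome 4, 130308595 to 130315463, plus strand) encodes the heart-type fatty acid binding protein, which carries fatty acids through the cytosol. It had 1666 TPM in replicate 1 and 1530 TPM in replicate 2 (1598 ± 95.6, SD, n = 2), 45th among nuclear protein-coding genes. The processed copy Fabp3-ps1 was listed at 27.5 TPM in replicate 1 and 106 TPM in replicate 2, and the sum of the gene and this copy was 1693 and 1636 TPM. How reads were split between the gene and this copy is uncertain and was not tested. The libraries lay closer together on the sum, which was added after seeing the data, than on the gene alone. Lpl, the lipase that frees fatty acids from lipoproteins, had 164.7 TPM in replicate 1 and 170.9 TPM in replicate 2. Cd36, the membrane translocase for long-chain fatty acids, had 123.8 and 135.5 TPM in replicates 1 and 2. Slc27a1, a transport protein that also has acyl-CoA synthetase activity, was far lower, at 13.1 and 12.9 TPM. Cd36 exceeded Slc27a1 by 9.91-fold (log2 ratio 3.31 ± 0.11, SD, n = 2).

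Activation to acyl-CoA was shared by 4 long-chain synthetase genes with a summed level of 184.9 TPM in replicate 1 and 174.3 TPM in replicate 2. The sum for uptake and carriage, most of it from Fabp3, was higher. So was that for the carnitine shuttle, at 424.9 and 403.1 TPM. Such sums depend on which genes were listed. Acsl1, the synthetase that predominates in adult heart, had 77.4 and 69.4 TPM. Acsl3, which is found on the endoplasmic reticulum and on lipid droplets, had 65.6 and 67.5 TPM. The log2 ratio of Acsl1 over Acsl3 was 0.24 in replicate 1 and 0.04 in replicate 2, where their intervals overlapped, so neither was called higher. Acsl5 had 30.4 and 26.6 TPM, and Acsl1 exceeded it by 2.57-fold (1.36 ± 0.02). Acsl4, which prefers arachidonic acid, had 11.4 and 10.8 TPM, and Acsl1 exceeded it by 6.57-fold (2.72 ± 0.05). Acsl5 shares 404 exonic bases with Zdhhc6 on the opposite strand. The sources used here do not say whether the authors assigned reads by strand.

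The carnitine shuttle was led by its muscle form. Cpt1b (ENSMUSG00000078937.4; mm10 chromosome 15, 89416405 to 89425863, minus strand) encodes the carnitine palmitoyltransferase of the outer mitochondrial membrane in muscle, the step at which entry into mitochondria is regulated. It had 203.0 TPM in replicate 1 and 191.9 TPM in replicate 2. Cpt1a, the liver form, had 29.6 and 26.1 TPM. Crat, the carnitine acetyltransferase of the matrix, had 140.3 and 130.5 TPM. Cpt2, which remakes acyl-CoA inside the mitochondrion, had 52.0 and 54.6 TPM and was thus lower than Cpt1b in both libraries. On the opposite strand Crat shares 411 exonic bases with Gm16323, at 0.92 and 1.40 TPM, and 59 with Dolpp1, at 24.5 and 20.8 TPM.

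Malonyl-CoA inhibits the enzymes that Cpt1a and Cpt1b encode, and the genes that set its level were among the lowest members. Mlycd, the decarboxylase that removes malonyl-CoA, had 21.3 TPM in replicate 1 and 17.0 TPM in replicate 2. Acacb, the carboxylase that makes it at the mitochondrial surface, had 11.6 and 9.52 TPM. Mlycd was therefore the higher of the pair (log2 ratio of Acacb over Mlycd -0.85 ± 0.02, SD, n = 2). This order rests on the length correction: without it, on estimated counts, the log2 ratio was 0.97, since Acacb had 2298 and 2005 counts and Mlycd 1159 and 1029. Acacb exceeded Acaca, the carboxylase of cytosolic fat synthesis, which had 5.75 and 4.14 TPM, by 2.13-fold (1.09 ± 0.13).

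The acyl-CoA dehydrogenases take the first step of each round and are specialised by chain length. Their 5 genes summed to 1392 TPM in replicate 1 and 1385 TPM in replicate 2. Acadl (ENSMUSG00000026003.5; mm10 chromosome 1, 66830839 to 66863277, minus strand), for long chains, had 721.6 and 736.8 TPM, the second level of all members. Acadm, for medium chains, had 268.7 and 285.2 TPM and was exceeded by Acadl by 2.63-fold (1.40 ± 0.04). Acadvl, the membrane-bound enzyme for very long chains, had 247.3 and 217.9 TPM, though 1151 of its exonic bases also belong to Dvl2 on the opposite strand. Dvl2 itself was at 16.0 and 13.5 TPM. Acads, for short chains, had 119.8 and 111.6 TPM. Acad9, which is also an assembly factor of respiratory complex I, was the lowest of the group at 34.5 and 33.4 TPM. Acadvl exceeded it by 6.82-fold (2.77 ± 0.09).

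The genes for hydration, the further oxidation and thiolysis had the second highest sum of the roles, with 1709 TPM in replicate 1 and 1650 TPM in replicate 2. Acaa2, the mitochondrial thiolase of medium and short chains, had 629.3 and 616.3 TPM. Hadhb, the thiolase subunit of the mitochondrial trifunctional protein, had 427.1 and 390.4 TPM. Hadha, the subunit that holds the hydratase and dehydrogenase activities for long chains, had 283.2 and 279.5 TPM. The protein subunits assemble in equal numbers. In RNA, on TPM over all transcripts, Hadhb stood higher by 1.45-fold (log2 ratio of Hadha over Hadhb -0.54 ± 0.08, SD, n = 2). Echs1, the short-chain hydratase, had 203.3 and 210.6 TPM. Hadh, the dehydrogenase for medium and short chains, had 166.4 and 153.1 TPM.

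Hadha (ENSMUSG00000025745.7; mm10 chromosome 5, 30118304 to 30155162, minus strand) and Hadhb (ENSMUSG00000059447.9; mm10 chromosome 5, 30155248 to 30184593, plus strand) point away from each other, with 85 bases between their M21 starts and 272 between their RefSeq starts. The promoter printed above for Hadhb thus includes most of the window of Hadha. On TMM-scaled CPM, Hadha in replicate 1 stood at 0.978 times its replicate 2 level, and Hadhb at 1.05 times.

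Auxiliary enzymes deal with double bonds of unsaturated fatty acids. Eci1, an enoyl-CoA isomerase of mitochondria, had 248.2 TPM in replicate 1 and 242.7 TPM in replicate 2. Eci2, an isomerase of peroxisomes and mitochondria, had 128.2 and 123.0 TPM, and Eci1 exceeded it by 1.95-fold (0.97 ± 0.02). Decr1, the dienoyl-CoA reductase, had 37.4 and 35.7 TPM. The spread of all 3 genes was under 5% of their mean.

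Electron transfer genes were all high. Etfb and Etfa encode the beta and alpha subunits of the electron transfer flavoprotein, which takes electrons from the dehydrogenases. Etfb had 690.8 TPM in replicate 1 and 636.0 TPM in replicate 2. Etfa had 377.1 and 383.8 TPM. The protein subunits pair in equal numbers. In RNA, on TPM, Etfb was higher by 1.74-fold (log2 ratio of Etfa over Etfb -0.80 ± 0.10, SD, n = 2). On estimated counts without length correction the log2 ratio was -0.07. The main transcripts differ in length, 1392 nt for Etfa and 868 nt for Etfb, so these counts do not compare levels directly. Etfdh, the ubiquinone oxidoreductase that passes these electrons to the chain, had 189.9 and 181.2 TPM, and 278 of its exonic bases also belong to 4930579G24Rik on the opposite strand, at 18.1 and 21.9 TPM.

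Genes of storage and lipolysis were lower, with sums of 210.7 TPM in replicate 1 and 193.2 TPM in replicate 2. Plin2, the lipid droplet coat protein found in most tissues, had 63.8 and 62.7 TPM. Pnpla2, the lipase that starts triglyceride breakdown, had 60.5 and 61.6 TPM. Both hardly differed between the libraries on TPM. By TMM-scaled CPM, replicate 1 stood at 1.10 times replicate 2 for Plin2 and at 1.01 times for Pnpla2. Dgat1 and Dgat2, unrelated enzymes of the last step of triglyceride synthesis, had 46.7 and 37.3 TPM and 37.4 and 30.3 TPM in replicates 1 and 2. Dgat1 was higher by 1.24-fold (0.31 ± 0.01), an order that turned round without length correction (-0.46) and on protein-coding transcripts only (-0.65). Plin5 (ENSMUSG00000011305.7; mm10 chromosome 17, 56111601 to 56117596, minus strand), the droplet protein of oxidative tissues that ties droplets to mitochondria, had 2.26 and 1.27 TPM. This came from 114 counts in replicate 1 and 71 in replicate 2. Plin2 exceeded Plin5 by 35.2-fold (5.14 ± 0.54), the widest of the 16 gene ratios examined.

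Of adipocyte markers, Ucp1 and Lep had 0 counts in both libraries, and Adipoq had 1 count in each. The 8 listed markers summed to 19.4 TPM in replicate 1 and 17.3 TPM in replicate 2, nearly all of it from Cidea and Lipe, and 2 of 8 reached 1 TPM in both. All 8 listed cardiomyocyte markers did so, with sums of 26720 and 26027 TPM, so the label of heart was met by its markers.

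Ketone use was carried by high genes of the shared steps and a low gene of the entry step. Oxct1 (ENSMUSG00000022186.10; mm10 chromosome 15, 4026383 to 4155344, plus strand) encodes the transferase that activates acetoacetate, the step that makes a tissue able to burn ketones. It had 319.8 TPM in replicate 1 and 255.8 TPM in replicate 2. Acat1, the mitochondrial thiolase that splits acetoacetyl-CoA, had 183.6 and 191.6 TPM. Bdh1, the dehydrogenase that turns hydroxybutyrate into acetoacetate, had 9.66 and 13.2 TPM. Oxct1 exceeded Bdh1 by 25.1-fold (4.65 ± 0.55), with log2 ratios of 5.03 in replicate 1 and 4.26 in replicate 2. Both genes share exonic bases with a gene on the other strand, 467 for Oxct1 with BC037032 and 533 for Bdh1 with Gm15743. BC037032 was at 2.35 and 2.24 TPM and Gm15743 at 0.34 and 0.11 TPM.

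Thioesterases split acyl-CoA back into free fatty acid and coenzyme A. Acot13 had 271.2 TPM in replicate 1 and 271.8 TPM in replicate 2. On TPM this was the smallest spread of any member, at 0.135% of the mean. By TMM-scaled CPM, Acot13 in replicate 1 stood at 0.967 times its replicate 2 level, and Acad9 was closer, at 1.003 times. Acot2, the mitochondrial form, had 70.4 and 59.6 TPM, and the log2 ratio of Acot13 over Acot2 was 2.07 ± 0.17 (4.19-fold). Without length correction that ratio was 0.31. Acot2 has a close paralog, and reads shared between such copies make its value uncertain.

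Of the 16 gene ratios, 15 had the same direction in both libraries with credibility intervals, as deposited by the authors, that did not overlap in either. In 12 of them the first gene was higher and in 3 the second (Hadhb, Etfb and Mlycd), while Acsl1 over Acsl3 was not called. Among neighbours in the order of the 40 levels, 13 of 39 steps changed order between the libraries, and 26 were under 2 SD of their own log2 ratio. Many neighbours in the order were therefore not apart beyond their spread. Fabp3 over Acadl (1.13 ± 0.11), Acaa2 over Hadhb (0.61 ± 0.07), Acads over Acsl1 (0.66 ± 0.04) and Acacb over Plin5 (2.64 ± 0.38) were steps that held in both libraries. Oxct1 and Hadha, Acadm and Acot13, and Bdh1 and Acsl4 were neighbours whose order turned.

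**Figure D2:**
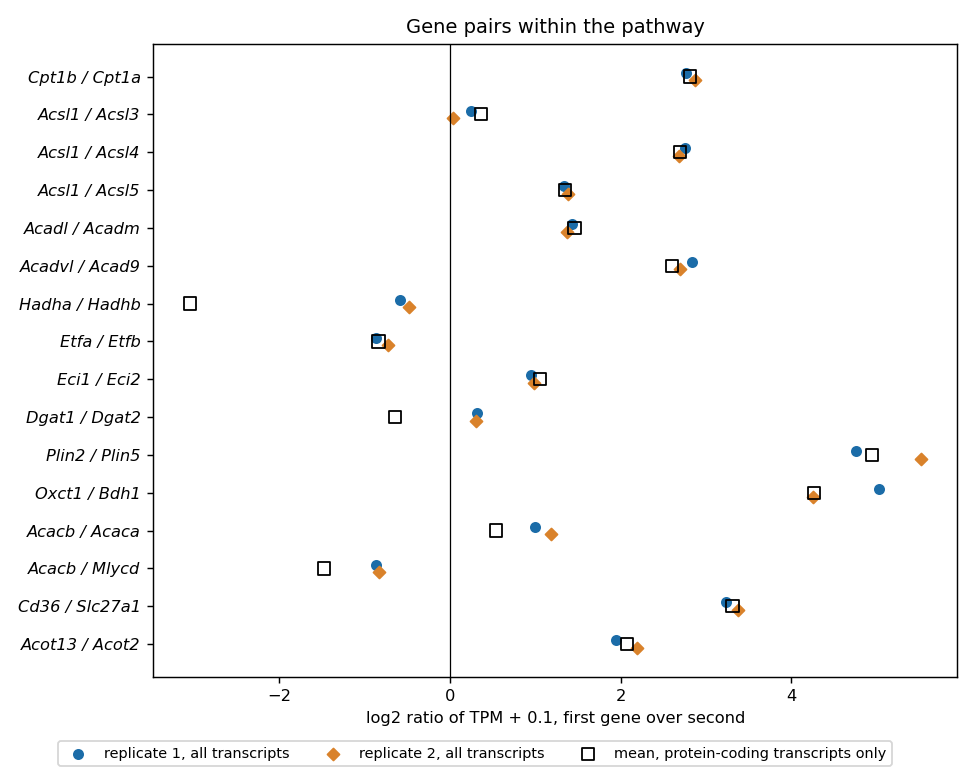
Log2 ratio of TPM + 0.1 for 16 gene ratios, first gene over second, in replicate 1 (circles) and replicate 2 (diamonds), with the mean of both libraries over protein-coding transcripts only (open squares). The squares lie near the points for most ratios, but fall at -3.05 for Hadha over Hadhb and at -0.65 for Dgat1 over Dgat2.

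The members also differed in the classes of their transcripts. They had 178 transcripts in the tables, of which 176 were matched in M21 and 158 had the same length there. Classes are those of M21, while the authors quantified on M4. The same transcript was the highest in both libraries for 39 members, the exception being Pnpla2, and by the mean of both libraries the highest transcript was protein-coding for 37 of the 40 members. In 30 members at least 90% of TPM lay on protein-coding transcripts, and 6 were under 70%.

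Hadha was the furthest from this pattern, with 17.5% of its TPM in replicate 1 and 17.0% in replicate 2 on its only protein-coding transcript, of 4020 nt. Hadha-201, a processed transcript by M21 and of 2554 nt in the deposited tables, held 53.7% and 54.9%. Hadha-204, of 323 nt, held 27.1% and 26.3%. The coding transcript alone stood at 49.7 and 47.5 TPM, and the log2 ratio of Hadha over Hadhb was then -3.05. The shares differed little between the libraries. Both libraries were assigned to the same annotation, so this spread does not cover error in assigning reads to transcripts. TPM corrects for length, so the short Hadha-204 held a smaller share of the gene's reads than of its TPM. How secure the coding share is was not tested.

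Lpl had 33.1% and 40.5% of its TPM on protein-coding Lpl-201, and 66.1% and 58.5% on Lpl-203, classed as a target of nonsense-mediated decay. Dgat1 had 47.1% and 55.7% on its coding transcript, and most of the rest on transcripts with a retained intron. Pnpla2 had 55.9% and 62.7% on coding transcripts. Its highest transcript was Pnpla2-201, of the decay class, in replicate 1 (42.1% against 35.2% in replicate 2) and coding Pnpla2-202 in replicate 2 (35.9% in replicate 1 against 42.0%). Acacb had 66.3% and 60.7% on coding transcripts, with 33.7% and 36.8% on the retained-intron transcript Acacb-204.

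Oxct1 had 65.0% of its TPM in replicate 1 and 68.9% in replicate 2 on coding transcripts. Oxct1-202, a processed transcript of 480 nt, had 111.5 TPM in replicate 1 and 79.2 TPM in replicate 2. A coding transcript of 1743 nt had 123.8 and 92.8 TPM, while coding Oxct1-201, the longest of them at 3527 nt, had 84.2 and 83.5 TPM. The gap between the libraries in Oxct1 thus lay on the shorter transcripts and not on the longest. On TMM-scaled counts the gene's log2 ratio of replicate 1 over replicate 2 was 0.14, against 0.32 on TPM.

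**Figure D3:**
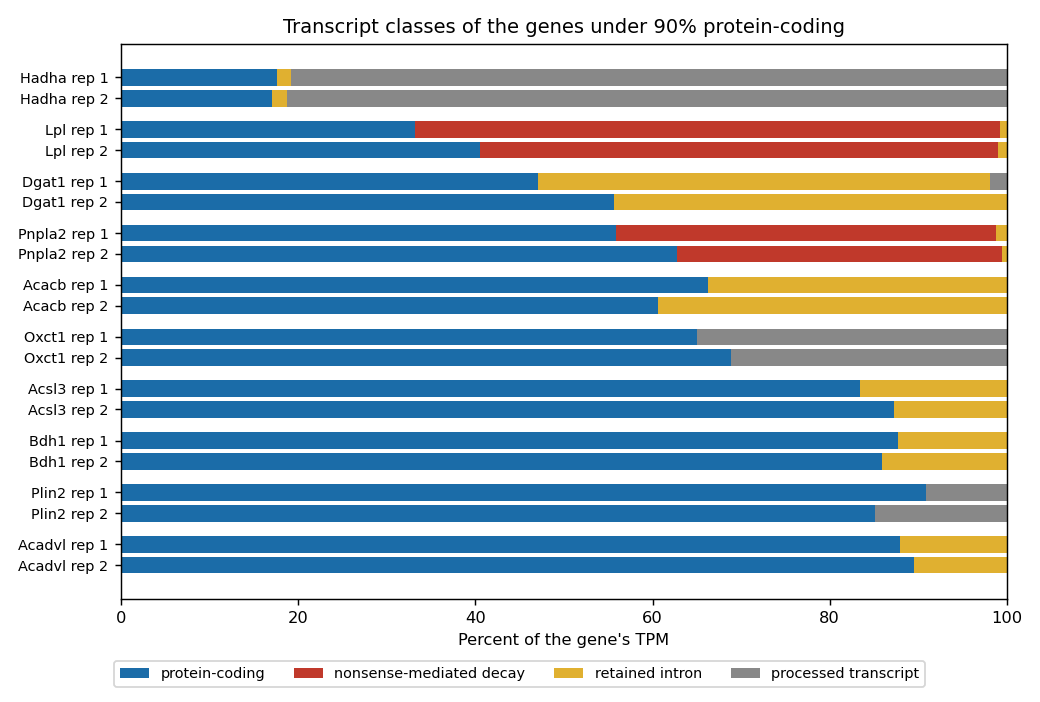
Percent of each gene's TPM on protein-coding, nonsense-mediated decay, retained-intron and processed transcripts, for the 10 members under 90% protein-coding, replicate 1 above replicate 2. Hadha stands lowest at 17.5% and 17.0%, followed by Lpl.

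Of all genes, the share within 1.2-fold between the pools was not computed. Among the members it was 36 of the 40. Their median log2 ratio of replicate 1 over replicate 2, on CPM scaled by TMM after adding 0.5 to the counts, was 0.04. Over all 14830 genes whose mean reached 1 TPM it was 0.00. Of the members, 25 were higher in replicate 1 and 15 in replicate 2. Of those genes 50.1% were higher in replicate 1, and of the nuclear protein-coding ones 52.8%. No member was over 2-fold apart by a rule that also asked for 100 counts and separate intervals (39 members had the counts, Plin5 did not), while 3.22% of genes with that many counts were. At 1.5-fold on CPM alone, Plin5 was past the threshold, 1 of 40 against 12.3% of genes. Most of those genes have lower levels than the members, and the part of level in these counts was not tested. The SD was under 5% of the mean in 21 members and over 14% in 7, with a median of 4.11%. No such counts were made over all genes.

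Plin5, with 2.26 TPM in replicate 1 and 1.27 TPM in replicate 2, had the highest ratio, 0.78 on the log2 scale. Its deposited intervals, 1.85 to 2.67 and 0.993 to 1.58 TPM, did not overlap. At the other end Bdh1 was lower in replicate 1, at -0.52. Its counts were 442 and 681, and its intervals ran from 7.90 to 11.7 TPM and from 11.7 to 15.5 TPM, so that they barely missed each other. Acacb (0.30), Mlycd (0.28) and Dgat2 (0.26) came next, all higher in replicate 1. The genes of malonyl-CoA thus lay on the same side. Cd36 (-0.18) and Lpl (-0.19), of the uptake group, were on the other side, with separate intervals for Cd36 and overlapping ones for Lpl, whose ratio was -0.05 on TPM. Within the same group Fabp3 was at 0.08, with separate intervals, and Slc27a1 at -0.02.

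Separate intervals were counted for 18 of the 40 members higher in replicate 1, against 18.1% of genes whose mean reached 1 TPM. They were counted for 5 of the 40 higher in replicate 2, against 12% of such genes, and 17 overlapped. The members' share with separate intervals and higher in replicate 1 was thus above that of all genes, though the ratios were small. These intervals are in unscaled TPM. The members' median log2 ratio was 0.07 on unscaled TPM, against 0.04 on TMM-scaled CPM. Members also stand at higher levels than most genes. The parts of scaling and of level in this count were not tested. The authors' values need not lie inside their own intervals, and did not for 8 members in each library. The intervals cover counting and assignment error of a library and not differences between hearts.

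**Figure D4:**
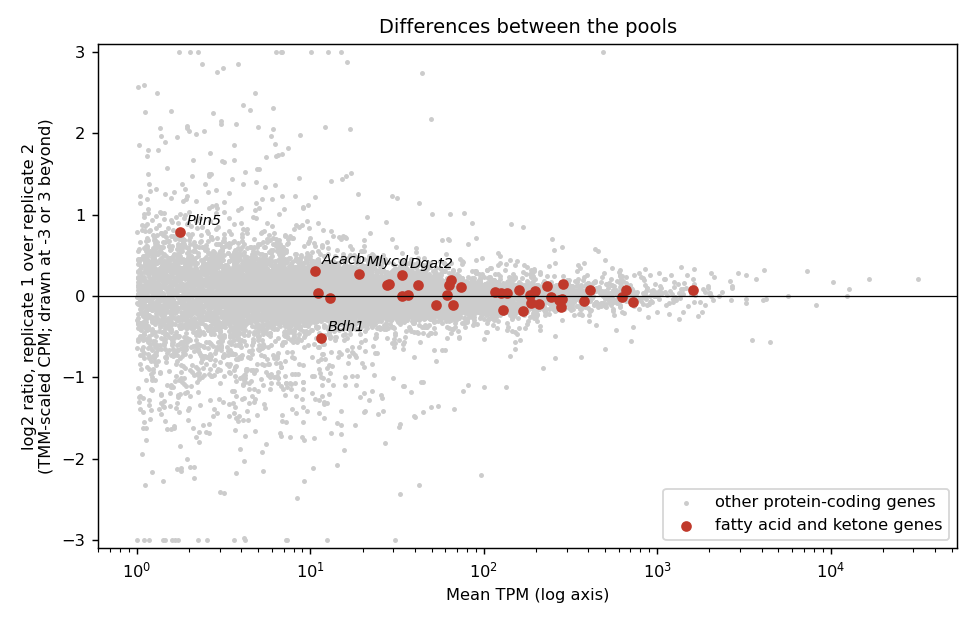
Log2 ratio of TMM-scaled CPM, replicate 1 over replicate 2, against mean TPM (log axis) for the 40 members (large points) and other protein-coding genes whose mean reached 1 TPM (small points, drawn at -3 or 3 beyond those values). Members lie between -0.52 (Bdh1) and 0.78 (Plin5), and those over 100 TPM lie close to 0.

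Marker genes of other cell types differed between these pools. By the same 2-fold rule (3.22% of genes), 5 of 6 lung epithelium, 6 of 7 thymocyte and 4 of 9 skeletal muscle markers were apart, and none of the 5 ventricular or 5 atrial ones. The 6 lung epithelium markers, all higher in replicate 1, summed to 983.5 TPM in replicate 1 and 121.9 TPM in replicate 2, with 5 of 6 at 1 TPM or more in both. Thymocyte markers summed to 107.0 and 275.7 TPM (5 of 7 at 1 TPM in both) and skeletal muscle markers to 201.9 and 288.8 TPM (8 of 9). Ventricular markers summed to 16105 and 12606 TPM (5 of 5) and atrial markers to 8348 and 11472 TPM (5 of 5). On TMM-scaled CPM all 5 ventricular markers were higher in replicate 1. Of the atrial markers, 4 were higher in replicate 2. The other, Nr2f2, was higher in replicate 1, at 11.9 and 8.76 TPM. No marker of these 5 lists was at 0 in both libraries. Their part in the members' differences was not tested. The 8 cardiomyocyte markers lay on both sides, from -0.26 (Myh6) to 0.29 (Myh7), with a median log2 ratio of 0.04. Spike-ins held 1.62% of the 37160624 estimated counts of replicate 1 and 3.41% of the 40360242 of replicate 2.

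Set against the other energy pathways, the members stood below both. Their median of 127.6 TPM compares with 411.4 TPM for 18 genes of the TCA cycle and 618.4 TPM for 17 genes of glycolysis. Within the member list, role medians ran from 14.9 TPM for malonyl-CoA and 42.0 TPM for storage and lipolysis to 380.5 TPM for electron transfer. For hydration, oxidation and thiolysis the median was 281.4 TPM. The list's median thus mixes roles of unlike level. The share of all TPM was 0.845% and 0.808% for the members, 1.01% and 0.969% for the TCA cycle and 1.81% and 1.61% for glycolysis, in replicates 1 and 2. Every gene of the TCA cycle and glycolysis lists reached 1 TPM in both libraries. No test was made of these differences between lists.

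**Figure D5:**
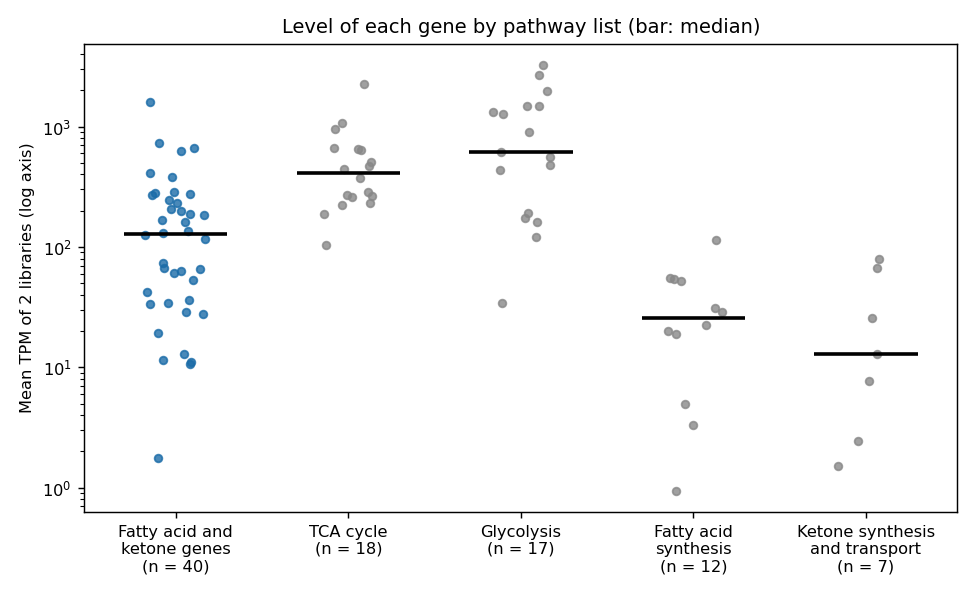
Mean TPM of 2 libraries (log axis) of each gene in the fatty acid and ketone set and in 4 other lists, with a bar at each list's median. Medians run from 618.4 TPM for glycolysis and 411.4 TPM for the TCA cycle through 127.6 TPM for the members to 25.5 TPM for fatty acid synthesis and 13.0 TPM for ketone synthesis and transport.

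Genes that surround the members in the pathway were mostly lower. Of the peroxisomal oxidation list, 10 of 11 were expressed by the same threshold. The list's median was 26.8 TPM and it was led by the sterol carrier Scp2 (172.6 TPM in replicate 1 and 162.0 TPM in replicate 2). The peroxisomal thiolase Acaa1a followed at 87.6 and 79.8 TPM, and Hsd17b4, the multifunctional enzyme, at 81.9 and 81.8 TPM. These expressed genes lay 5 higher and 5 lower in replicate 1. Of all genes whose mean reached 1 TPM, 50.1% were higher in replicate 1, and of nuclear protein-coding ones 52.8%. Median log2 ratios of the pathway lists were small, from -0.05 (ketone synthesis and transport) to 0.12 (lipid droplets and lipolysis).

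Of the list of carnitine shuttle and other acyl-CoA genes, 18 of 20 were expressed and the median was 16.6 TPM, with 11 higher in replicate 1 and 7 in replicate 2. Its highest were further binding proteins, Fabp5 at 463.8 and 488.5 TPM and Fabp4 at 237.1 and 225.9 TPM, so that Fabp3 at 1666 and 1530 TPM was above both. Next was Ivd, the dehydrogenase of leucine breakdown, at 86.9 and 76.7 TPM. Acsm5 was listed at 0 counts in both. The only gene of the pathway lists over 2-fold apart was the transporter Slc27a6, named after its values were seen, at 5.55 and 1.68 TPM.

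Regulators were at moderate levels. Of 17, 15 were expressed (median 18.9 TPM), 10 higher in replicate 1 and 5 in replicate 2. Ucp2, an uncoupling protein homologue, had 142.8 and 177.1 TPM, and Pdk2, a kinase that turns off pyruvate dehydrogenase, 117.4 and 117.6 TPM. Ppargc1a, the coactivator that drives mitochondrial genes, had 58.9 TPM in each library to 3 digits. In fatty acid synthesis, 11 of 12 were expressed (median 25.5 TPM), 9 higher in replicate 1 and 2 in replicate 2. The desaturase Scd2 had 123.5 and 106.9 TPM, the elongase Elovl1 58.0 and 53.1 TPM and the citrate lyase Acly 56.1 and 51.3 TPM.

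Among other lipid droplet and lipolysis genes, 14 of 16 were expressed (median 13.4 TPM), 13 higher in replicate 1 and 1 in replicate 2. The median log2 ratio of these expressed genes was 0.12, against 0.01 over nuclear protein-coding genes. G0s2, an inhibitor of the lipase that Pnpla2 encodes, had 123.1 and 93.9 TPM and was thus above Pnpla2 in both libraries on TPM. This order rests on the length correction. G0s2 had 2538 and 2150 estimated counts, against 3000 and 3199 for Pnpla2. The pair was not among the gene ratios chosen beforehand. The droplet protein Plin3 had 88.7 and 83.5 TPM, and Gpihbp1, which anchors lipoprotein lipase on capillaries, 56.6 and 53.3 TPM. Plin1, the droplet protein of fat cells, had 1 count in replicate 1 and 0 in replicate 2.

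For ketone synthesis and transport, all 7 genes were expressed (median 13.0 TPM), 2 higher in replicate 1 and 5 in replicate 2. The monocarboxylate transporter Slc16a1, through which ketone bodies and lactate cross the membrane, had 66.7 and 66.9 TPM. Acat2, a cytosolic thiolase, had 26.4 and 25.1 TPM. Oxct1, at 319.8 and 255.8 TPM, stood well above both.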

How the data were processed

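Total RNA of 2 pools of embryonic day 16.5 hearts was sequenced, and the processed gene and transcript tables were used, 1 library per table. The authors quantified reads against mm10 and GENCODE M4 with no pooling of replicates, per the file headers and deposited notes. The sources used here do not name the aligner, the quantification tool or the use of strand. The authors deposited estimated counts, which are not normalized and need not be whole, and TPM, which sums over every row including spike-ins. They also deposited posterior means, and the lower and upper bounds of TPM credibility intervals, used here as signal values in TPM units, with no stated level. Percent shares of transcripts come from the deposited tables.

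The gene tables hold 69691 rows, of which 43346 have Ensembl identifiers and 42462 matched M21 by identifier, and other rows (1.62% of replicate 1 counts, 3.41% of replicate 2 counts) stayed out of library sizes. Ensembl genes held 36559899 and 38982917 counts. A gene was called expressed at 1 TPM in each library. Ratios between pools used CPM from the estimated counts with 0.5 added, scaled by TMM in edgeR 4.0.16 (R 4.3.3). Only the library totals and TMM factors came from counts rounded to whole numbers. Gene ratios used TPM + 0.1 and were called where both libraries gave 1 direction with separate intervals. DESeq2 1.42.0 gave alternative size factors. Tables were handled in Python 3.11.15 with pandas 2.3.3. The log2 ratio on TMM-scaled CPM, and a 2-fold cut on it, were tested on simulated counts. Credibility intervals, the TPM rule and the gene ratios were not simulated. The biological coefficient of variation was 0.199 over 17185 genes.

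No p-value is given, since the smallest that an exact two-sided permutation of signs allows with 2 libraries is 0.5. No molecular identifiers are described, so reads may repeat the same molecule, and intervals cover counting and assignment error only. The libraries were checked for duplication: 749 of 21822 genes found in both had exactly equal estimated counts as deposited, with no tolerance. The members, lists, gene ratios and thresholds were chosen with earlier results of these data known. All 40 members could be named, with the 3 highest genes of each pathway list, list genes under 0.1 TPM in both libraries and the genes of the ratios. Values of some such genes are not reported here. Alternatives were other thresholds, scalings, pseudocounts, posterior means, counts without length correction, coding transcripts only and leaving out a library.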

Additional observations from a re-analysis of the deposited data

How the results depend on the processing

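No paired analysis was possible because the study has 1 group. All 40 members were expressed at each setting tried except 5 TPM (39 members, without Plin5), and none was counted as apart at any setting of that rule. The between-pool median log2 ratio ran from 0.03 (total-count scaling) to 0.07 (unscaled TPM). The median member level was 125.8 TPM on posterior means and 159.7 TPM over nuclear protein-coding genes only, and ran from 126.0 to 126.8 TPM without either replicate. The share of TPM was 1.03% over nuclear protein-coding genes only, and 0.950% on estimated counts.

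More gene ratios moved without length correction (14 of 16) than on protein-coding transcripts only (8 of 16), which held the largest single move, that of Hadha over Hadhb. On estimated counts the order turned for Dgat1 over Dgat2 (-0.46) and Acacb over Mlycd (0.97). Other log2 ratios on estimated counts were 2.23 for Cpt1b over Cpt1a, 0.56 for Acsl1 over Acsl3, 2.30 for Acsl1 over Acsl4, 1.64 for Acsl1 over Acsl5 and 1.34 for Acadl over Acadm. They were 1.76 for Acadvl over Acad9, -0.43 for Hadha over Hadhb, -0.07 for Etfa over Etfb and 0.67 for Eci1 over Eci2. They were 1.45 for Acacb over Acaca, 3.64 for Cd36 over Slc27a1 and 0.31 for Acot13 over Acot2.

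On protein-coding transcripts only, Dgat1 over Dgat2 turned to -0.65. Values there were 0.36 for Acsl1 over Acsl3, 1.46 for Acadl over Acadm, 2.60 for Acadvl over Acad9, -3.05 for Hadha over Hadhb, 1.05 for Eci1 over Eci2, 0.54 for Acacb over Acaca and -1.48 for Acacb over Mlycd. With a pseudocount of 1 TPM they were 2.62 for Acsl1 over Acsl4, 1.33 for Acsl1 over Acsl5, 4.56 for Plin2 over Plin5 and -0.80 for Acacb over Mlycd. On posterior means they were 0.36 for Dgat1 over Dgat2 and -0.81 for Acacb over Mlycd. Acsl1 over Acsl3 was 0.04 without replicate 1 and 0.24 without replicate 2. Beyond the length correction, which counts lack by construction, the cause was not tested. Posterior means moved 7 single levels and 8 top transcript shares by more than the spread of 2 libraries. The sum of Fabp3 and Fabp3-ps1 was added after seeing the data.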
